A study of Homo sapiens with 9 samples.

Results

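The collagen genes were examined in HaCaT cells, an immortalised human keratinocyte line. A gene counted as a collagen gene when its symbol consisted of COL, a number, A and a number. Of 41 symbols of this form in the files, COL17A1 and COL7A1 were left out, so that 39 collagen genes remained among the 16199 genes listed in at least 1 of the 9 libraries. All 3 groups were wild-type cells of this line, kept in serum-free medium and treated after they had reached confluence. The untreated group received medium alone, the EGF group received epidermal growth factor at 10 nM for 24 h, and the bleogen pB1 group received this plant-derived EGF-like peptide at 1 µM for 24 h. Each group had 3 libraries of polyA-selected RNA. The sources do not say whether the libraries of a group came from separate cultures, so the p-values measure the spread between these samples, which may be technical.

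Collagens are extracellular proteins whose chains wind around each other into a helix. Fibrillar chains form the fibres of the dermis and are made mainly by fibroblasts, type IV chains form the sheet of the basement membrane on which basal keratinocytes rest, and FACIT chains attach to the surface of fibrils. Transmembrane collagens stay anchored in the plasma membrane, and multiplexins carry sugar chains and sit in basement membranes. Some helices need different chains in a fixed ratio, and for these a chain without its partners may not be secreted as a complete molecule.

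The libraries held between 20288417 and 21320994 expected counts (sequenced fragments assigned to genes by estimation), and a count of 0 allows up to 3 counts, or 0.141 to 0.148 CPM (counts on a common library size). These floors cover counting error only. Collagen genes took 0.102 to 0.114% of the counts of a library. Of the 39 genes, 18 passed the count filter and were tested, and 21 did not. Of the untested genes, 17 stayed under 10 counts in every library. The keratinocyte identity of the cells was clear from its markers: all 6 keratinocyte markers (KRT5, KRT14, KRT15, TP63, DSG3 and DSP) were above 1 FPKM (fragments scaled to the length of the transcripts and the size of the library) in each group. None of 7 fibroblast or mesenchymal markers reached 1 FPKM in any group.

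The level of the collagen genes per length was dominated by a pair of basement membrane chains. The FPKM of the 39 genes summed to 169, 169 and 177 in the untreated libraries, to 163, 171 and 168 in the EGF libraries and to 170, 166 and 174 in the bleogen pB1 libraries, so that the groups overlapped. COL4A1 and COL4A2 together made up 53.5 to 56.5% of this sum in each library. Next came COL18A1 (27.2 ± 0.867 FPKM, SD, n = 3 untreated libraries), COL4A5 (13.7 ± 0.675) and COL12A1 (13.1 ± 0.876), of which the last pair did not differ beyond their spread. COL27A1, COL9A3, COL16A1, COL4A6 and COL5A1 followed, between 7.58 and 1.18 FPKM on average. The other 29 collagen genes were under 1 FPKM on average in untreated cells, and 27 of the 39 were under 1 FPKM in all 9 libraries. The plot of FPKM by library shows how far the levels spread and which genes moved with a treatment.

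**Figure D1:**
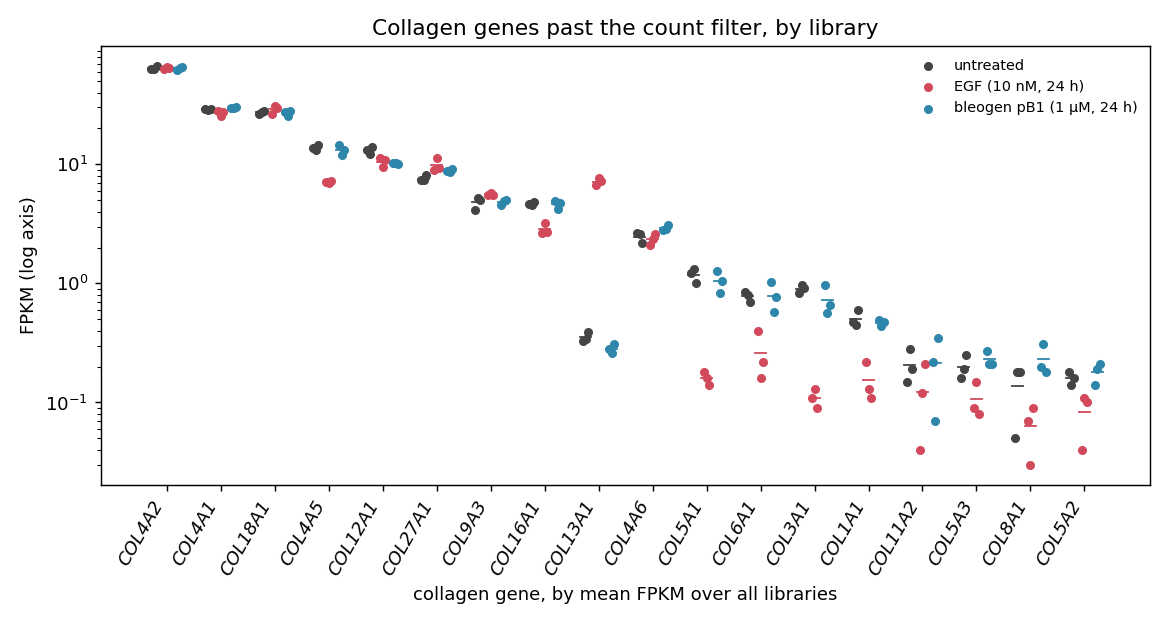
FPKM (log axis) of the 18 collagen genes that passed the count filter, ordered by their mean over all libraries. Each point is 1 library and each short line a group mean (n = 3): COL13A1 in the EGF libraries lies between 6.64 and 7.61 FPKM against 0.33 to 0.39 in untreated cells, while COL5A1, COL3A1, COL1A1 and COL6A1 lie lower in EGF libraries than in all others.

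EGF changed the collagen genes in steps of unlike size, with 1 gene up and 8 down. Of the 18 tested genes, 9 were differentially expressed, and 36.9% of all 12394 tested genes were. COL13A1 was upregulated (1 of 18, beside 15.1% of all genes), and COL3A1, COL5A1, COL1A1, COL6A1, COL4A5, COL5A2, COL5A3 and COL16A1 were downregulated (8 of 18, beside 21.8% of all genes). A gene was called differentially expressed at an adjusted p of at most 0.05 in edgeR's quasi-likelihood test and an absolute log2 fold change of at least 0.5. The median log2 fold change of the 18 genes was -0.72, and that of all tested genes was -0.01. On the CPM scale, 3 collagen genes were higher and 9 were lower in every EGF library than in every untreated library, beside 34.5% and 35.9% of all genes. By class, 5 of 7 tested fibrillar genes, 1 of 4 type IV genes, the only tested type VI gene and 1 of 3 FACIT genes fell, the only tested transmembrane gene rose, and neither the only tested multiplexin gene nor the only tested short-chain gene passed the test.

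**Figure D2:**
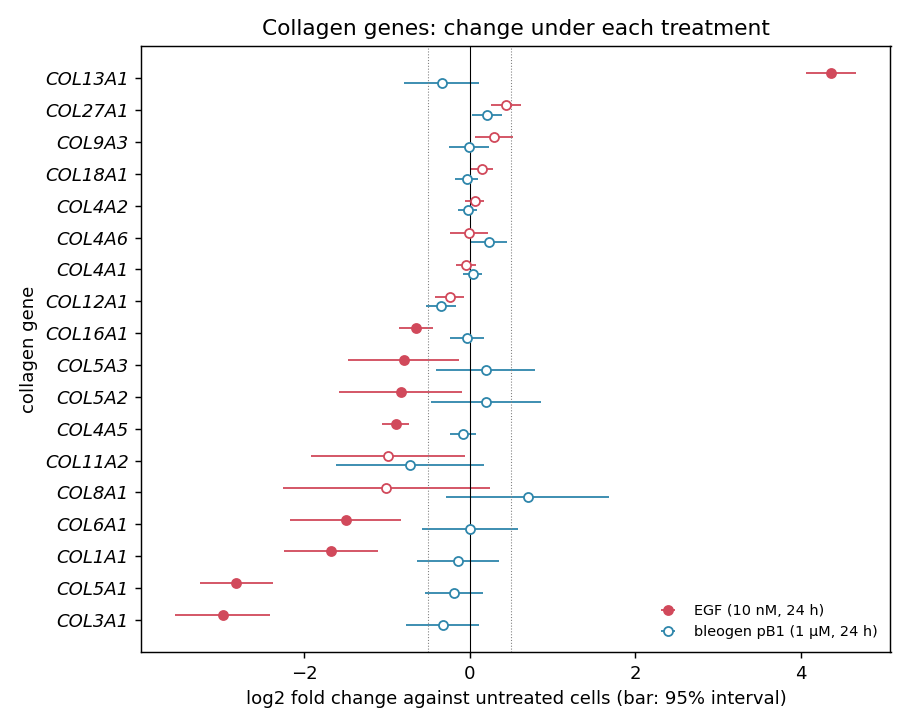
Log2 fold change (horizontal axis) of the 18 tested collagen genes against untreated cells, with 95% intervals, from the edgeR fit to all 9 libraries. Filled points passed both thresholds and dotted lines mark a log2 fold change of 0.5 in either direction: the EGF points run from -2.98 (COL3A1) to 4.36 (COL13A1), while the bleogen pB1 points stay within -0.72 and 0.70 and none is filled.

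The transmembrane collagen COL13A1 showed the largest change among these genes. COL13A1 (NCBI gene 1305, chr10:69801880-69964275 on the plus strand of GRCh38) encodes a membrane-anchored collagen found at cell adhesions. Its expected counts were 20, 20 and 24 in untreated cells, 401, 448 and 442 with EGF, and 17, 16 and 19 with bleogen pB1. The EGF libraries stood far above the other 6, and the bleogen pB1 libraries were all below the untreated ones. With EGF the level rose from 0.353 ± 0.032 to 7.14 ± 0.486 FPKM (SD, n = 3), a 20.5-fold increase (log2 fold change 4.36 ± 0.14 SE, adjusted p = 1.66e-10, edgeR). At that level COL13A1 matched COL4A5 in the same cells, which averaged 7.10 FPKM. The other transmembrane collagen listed, COL23A1, had at most 3 counts in any library.

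The RefSeq promoter window of COL13A1 (250 bases before to 50 bases after the start site, GRCh38.p14) is shown because this gene alone was called higher with EGF. That of the fibrillar gene COL5A1 is shown as one of the genes with the largest falls. The COL13A1 window lies at chr10:69801656-69801955 and the COL5A1 window at chr9:134641553-134641852, both on the plus strand. Capitals mark matches, on either strand, to the TATA box letters TATAAA or to the GC box letters GGGCGG.
COL13A1: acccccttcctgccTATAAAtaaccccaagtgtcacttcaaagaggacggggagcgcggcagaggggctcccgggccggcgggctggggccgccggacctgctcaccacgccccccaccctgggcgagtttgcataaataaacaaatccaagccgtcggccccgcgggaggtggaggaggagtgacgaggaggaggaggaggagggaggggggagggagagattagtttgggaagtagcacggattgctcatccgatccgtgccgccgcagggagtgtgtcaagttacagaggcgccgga
COL5A1: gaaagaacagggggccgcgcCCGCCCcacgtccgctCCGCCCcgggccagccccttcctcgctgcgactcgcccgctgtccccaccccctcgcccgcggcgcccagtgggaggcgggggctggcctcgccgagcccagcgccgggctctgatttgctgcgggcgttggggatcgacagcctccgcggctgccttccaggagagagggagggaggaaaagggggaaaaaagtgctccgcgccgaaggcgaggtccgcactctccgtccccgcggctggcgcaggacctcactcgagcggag
The COL13A1 window held a single TATAAA, starting 236 bases before the start site, and no GGGCGG, and the COL5A1 window held 2 GC boxes, 230 and 214 bases before the start site, and no TATAAA. Neither held the AP-1 letters TGANTCA or the letters CCAAT. Over all 35116 RefSeq windows of this length, 11.5% held TATAAA, 45.0% GGGCGG, 34.6% CCAAT and 7.71% TGANTCA. Of 39 windows of 28 matched collagen genes, 6 held TATAAA, 23 GGGCGG, 11 CCAAT and 1 TGANTCA, and 5 of the 10 genes called in any comparison had an entry. These matches describe the letters alone.

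Of the 7 tested fibrillar genes, 5 fell with EGF, each from an untreated mean of at most 1.18 FPKM, and COL27A1 and COL11A2 were not called. COL5A1 (NCBI gene 1289, chr9:134641803-134844843, plus strand), a chain that regulates fibril diameter, had 212, 223 and 174 counts in untreated cells, 31, 27 and 26 with EGF, and 219, 147 and 184 with bleogen pB1. It fell 7.06-fold with EGF (log2 fold change -2.82 ± 0.20 SE, adjusted p = 1.59e-07, edgeR), from 1.18 ± 0.155 to 0.160 ± 0.020 FPKM. COL3A1 (NCBI gene 1281, chr2:188974373-189012746, plus strand), the chain of type III collagen of extensible tissues, had 93, 107 and 102 counts in untreated cells, 12, 14 and 11 with EGF, and 108, 64 and 75 with bleogen pB1. It fell 7.91-fold with EGF (log2 fold change -2.98 ± 0.26 SE, adjusted p = 8.74e-07, edgeR). For both genes the highest EGF library lay below the lowest of the other 6 libraries, while the untreated and bleogen pB1 libraries overlapped.

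COL1A1 (NCBI gene 1277, chr17:50184101-50201632, minus strand), the main chain of type I collagen, had 57, 54 and 73 counts in untreated cells, 27, 15 and 14 with EGF, and 59, 54 and 58 with bleogen pB1. It fell 3.19-fold with EGF (log2 fold change -1.67 ± 0.26 SE, adjusted p = 1.07e-04, edgeR). Its partner chain COL1A2 had 3 counts in 1 untreated library and was at 0 in the other 8, so that its RNA was not detectable at this depth in 8 of 9 libraries. COL5A2, the partner of COL5A1 in type V collagen, which lies beside COL3A1 on the other strand (chr2:189031898-189225312), had 25, 19 and 22 counts in untreated cells, 6, 15 and 15 with EGF, and 20, 28 and 30 with bleogen pB1. COL5A3, a minor chain of the same family on chromosome 19, had 20, 24 and 31 counts in untreated cells, 12, 19 and 11 with EGF, and 34, 27 and 27 with bleogen pB1. Both ranges lay below the untreated range by a few counts only.

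The calls of COL5A2 and COL5A3 were close to the threshold. COL5A2 changed by -0.84 ± 0.34 (log2, SE, adjusted p = 0.0471, edgeR) and COL5A3 by -0.80 ± 0.31 (adjusted p = 0.0369, edgeR), and once replicate numbers entered the fit as a block their adjusted p became 0.0513 and 0.0561. Without EGF replicate 1 the adjusted p of COL5A2 was 0.177, and without untreated replicate 3 that of COL5A3 was 0.140. The ratio of COL5A1 to COL5A2 on the FPKM scale was 6.83, 9.36 and 6.31 in untreated cells and 4.50, 1.45 and 1.40 with EGF. The ratios did not overlap, and an exact permutation test gave p = 0.1 (two-sided, the smallest p that 3 against 3 libraries allow). Those ratios rest on 6 to 25 counts of COL5A2 per library.

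COL27A1, a fibrillar gene that was not called, had higher values with EGF. This gene of cartilage and epithelia made up most of the fibrillar FPKM, with 7.37, 7.31 and 8.06 in untreated cells, 8.92, 11.3 and 9.26 with EGF, and 8.81, 8.55 and 9.18 with bleogen pB1. All treated libraries lay above all untreated ones. Its log2 fold change with EGF was 0.43 ± 0.08 (SE, adjusted p = 5.06e-04, edgeR), under the fold threshold. The summed FPKM of the 11 fibrillar genes was therefore 10.8 ± 0.423 in untreated cells and 10.6 ± 1.42 with EGF (SD, n = 3). The last tested fibrillar gene, COL11A2, had 18, 34 and 25 counts in untreated cells and 5, 16 and 17 with EGF, and its log2 fold change of -0.98 ± 0.43 SE missed the threshold (adjusted p = 0.0589, edgeR). Its listed length varied between 2538 and 6425 bases among libraries, so its FPKM is not compared here.

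Markers of several cell types, keratinocytes included, also changed with EGF. The summed FPKM of the 7 fibroblast or mesenchymal markers was 0.19 to 0.47 in untreated cells, 0.11 to 0.19 with EGF and 0.29 to 0.48 with bleogen pB1. Decorin (DCN), a fibril-binding proteoglycan and the only one of the 7 that was tested, had 6, 22 and 12 counts in untreated cells, 0, 0 and 1 with EGF, and 14, 13 and 19 with bleogen pB1. LUM had 2, 4 and 5 counts in untreated cells and 0 in each EGF library, PDGFRA and THY1 were at 0 in the untreated libraries, and VIM stayed between 2 and 6 counts in all groups. The summed FPKM of 4 endothelial markers was 0.13 to 0.18 in untreated cells and 0.03 to 0.05 with EGF, and that of 3 melanocyte markers was 0.67 to 0.87 and 0.39 to 0.66. That of 3 leukocyte markers, nearly all of it CD68, was higher with EGF, at 10.2 to 11.3 against 6.55 to 6.96. That of the 6 keratinocyte markers was 4642 to 5122 in untreated cells, 3454 to 3621 with EGF and 4677 to 5522 with bleogen pB1, and of these KRT5 (-1.12 ± 0.08, log2, SE), KRT15 (-1.85 ± 0.14) and DSP (-0.70 ± 0.09) fell with EGF, KRT14 (0.88 ± 0.07) and TP63 (0.50 ± 0.08) rose, and DSG3 was not called. The part of other cell types in the fall of the fibrillar genes was not tested, and in bulk RNA fewer cells of a type and less RNA per cell cannot be told apart.

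Type IV collagen, the sheet-forming collagen of the basement membrane, lost COL4A5 RNA with EGF, while its most abundant chains did not pass the test. COL4A2 was at 63.5, 63.0 and 66.9 FPKM in untreated cells, 62.6, 65.9 and 64.9 with EGF, and 62.4, 64.0 and 66.0 with bleogen pB1. COL4A1 was at 29.1, 28.5 and 29.2 FPKM in untreated cells, 28.2, 25.3 and 27.2 with EGF, and 29.8, 29.7 and 30.3 with bleogen pB1. The log2 fold change with EGF was 0.06 for COL4A2 (95% interval -0.05 to 0.17) and -0.04 for COL4A1 (-0.16 to 0.08), so changes beyond those bounds lay outside the intervals. The COL4A2 to COL4A1 ratio of FPKM was 2.23 ± 0.056 in untreated cells and 2.40 ± 0.192 with EGF (SD, n = 3, exact permutation p = 0.2). These genes overlap on opposite strands in the annotation (COL4A1 at chr13:110148963-110307157, COL4A2 at chr13:110305812-110513209), and it is not stated whether the counting used strand.

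COL4A5 (NCBI gene 1287, chrX:108439838-108697545, plus strand), which joins COL4A6 in the basement membrane of the epidermis, was at 13.7, 13.1 and 14.4 FPKM in untreated cells, 7.08, 6.91 and 7.30 with EGF, and 14.4, 11.9 and 13.1 with bleogen pB1. The EGF libraries formed a tight group below all others, with a 1.86-fold fall (log2 fold change -0.89 ± 0.07 SE, adjusted p = 5.73e-07, edgeR). COL4A6 (NCBI gene 1288, chrX:108155607-108439497, minus strand) was at 2.63, 2.60 and 2.19 FPKM in untreated cells, 2.10, 2.38 and 2.59 with EGF, and 2.83, 2.87 and 3.11 with bleogen pB1. Its log2 fold change with EGF was -0.01 (95% interval -0.24 to 0.22), with overlapping libraries. The COL4A5 to COL4A6 ratio of FPKM was 5.22, 5.02 and 6.58 in untreated cells, 3.37, 2.90 and 2.82 with EGF, and 5.09, 4.13 and 4.21 with bleogen pB1. The log2 ratio was lower by 0.88 with EGF in a comparison without overlap, where the exact permutation test (two-sided) gave its smallest possible p of 0.1, and it differed by -0.32 with bleogen pB1 (exact permutation p = 0.2).

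**Figure D3:**
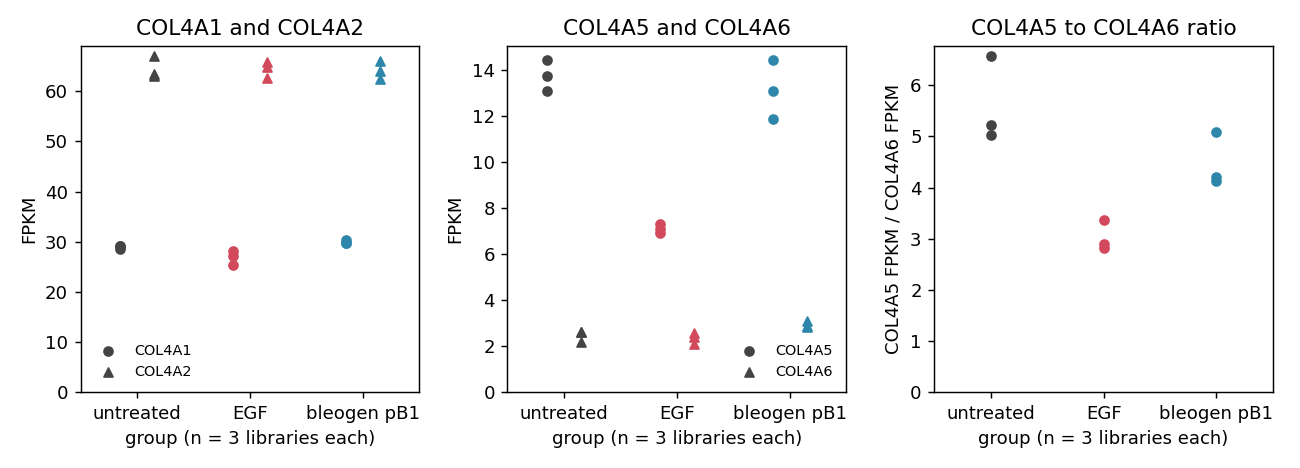
FPKM of the type IV chains COL4A1 and COL4A2 (left), COL4A5 and COL4A6 (middle) and the ratio of COL4A5 to COL4A6 (right) in each library, with 3 libraries in each group and vertical axes from 0. The EGF libraries lie at 6.91 to 7.30 FPKM of COL4A5 against 13.1 to 14.4 in untreated cells, whereas COL4A1, COL4A2 and COL4A6 stay close to their untreated levels.

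The genes of this class stand head to head in pairs. The windows of COL4A5 and COL4A6 are shown because the first was called with EGF and the second was not, and that of COL4A2 because it was the collagen gene of highest FPKM. The RefSeq start sites of COL4A5 and COL4A6 lie 380 bases apart, those of COL4A2 and COL4A1 127 bases apart and those of COL4A3 and COL4A4 419 bases apart. COL4A6 has another RefSeq start site, 1416 bases from that of COL4A5. The windows (GRCh38.p14) are chrX:108439588-108439887 on the plus strand for COL4A5, chrX:108439409-108439708 on the minus strand for COL4A6 and chr13:110307034-110307333 on the plus strand for COL4A2. Capitals mark matches to CCAAT or GGGCGG on either strand.
COL4A5: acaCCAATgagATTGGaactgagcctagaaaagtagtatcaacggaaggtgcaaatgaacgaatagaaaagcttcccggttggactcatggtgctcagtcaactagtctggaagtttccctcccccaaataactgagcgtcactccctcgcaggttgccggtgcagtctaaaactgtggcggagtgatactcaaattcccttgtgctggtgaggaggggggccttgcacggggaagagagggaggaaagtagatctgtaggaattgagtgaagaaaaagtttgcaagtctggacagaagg
COL4A6: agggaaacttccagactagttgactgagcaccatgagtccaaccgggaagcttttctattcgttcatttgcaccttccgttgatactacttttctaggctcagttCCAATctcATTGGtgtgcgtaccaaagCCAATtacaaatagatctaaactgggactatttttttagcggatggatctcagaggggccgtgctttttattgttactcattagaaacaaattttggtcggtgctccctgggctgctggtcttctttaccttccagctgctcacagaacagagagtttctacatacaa
COL4A2: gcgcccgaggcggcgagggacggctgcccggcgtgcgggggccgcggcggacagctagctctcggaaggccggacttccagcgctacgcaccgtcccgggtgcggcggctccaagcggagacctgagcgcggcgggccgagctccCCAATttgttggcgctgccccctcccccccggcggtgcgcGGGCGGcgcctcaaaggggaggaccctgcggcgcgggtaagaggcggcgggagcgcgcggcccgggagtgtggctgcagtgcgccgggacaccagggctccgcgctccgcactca
The COL4A5 and COL4A6 windows share 121 bases, which hold the pair of CCAAT matches of the COL4A5 window (247 and 239 bases before its start site), read from the other strand in the COL4A6 window (145 and 137 bases before its start site). COL4A6 has another CCAAT match of its own, 118 bases before the start site. The COL4A2 window shares 226 bases with the window of COL4A1 and holds a CCAAT match and a GC box, 105 and 65 bases before the start site. The remaining chains, COL4A3 and COL4A4, had at most 2 and 5 counts in any library.

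Of the type VI genes, which form beaded filaments, only COL6A1 passed the filter. It had 72, 68 and 60 counts in untreated cells, 35, 14 and 20 with EGF, and 88, 51 and 67 with bleogen pB1. The EGF libraries lay below all others, and the fall was 2.82-fold (log2 fold change -1.50 ± 0.31 SE, adjusted p = 8.51e-04, edgeR). Its partner COL6A2 had at most 4 counts in any library. COL6A3 had 1, 1 and 0 counts in untreated cells, 2, 20 and 8 with EGF, and 2, 3 and 2 with bleogen pB1.

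Among the FACIT genes and their relatives, COL16A1 fell and COL12A1 and COL9A3 stayed within the fold threshold. COL16A1, a collagen of the dermal-epidermal junction, was at 4.62, 4.54 and 4.82 FPKM in untreated cells, 2.65, 3.21 and 2.68 with EGF, and 4.90, 4.19 and 4.75 with bleogen pB1. The EGF libraries were separate from the other 6, with a log2 fold change of -0.65 ± 0.10 (SE, adjusted p = 6.57e-05, edgeR). COL12A1, a fibril-associated chain, was at 13.1, 12.2 and 13.9 FPKM in untreated cells, 11.3, 9.47 and 10.8 with EGF, and 10.3, 10.2 and 10.0 with bleogen pB1. On this per-length scale all treated libraries lay below all untreated ones, whereas on the CPM scale the EGF libraries overlapped the untreated ones. The listed length of COL12A1 varied between 9178 and 9936 bases among libraries. Its log2 fold change with EGF was -0.24 ± 0.08 (SE, adjusted p = 0.0198, edgeR), under the fold threshold. Between EGF and bleogen pB1 it differed by 0.11 ± 0.08 (adjusted p = 0.297, edgeR). COL9A3 was at 4.10, 5.25 and 4.97 FPKM in untreated cells and 5.51, 5.72 and 5.54 with EGF, and its log2 fold change of 0.29 ± 0.11 SE had an adjusted p of 0.0287 in edgeR. COL9A3 overlaps TCFL5 on the opposite strand, so its reads may not be told apart from those of that gene.

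COL18A1, the multiplexin that releases endostatin, was close to COL4A1 in level per length. It was at 26.3, 27.3 and 28.1 FPKM in untreated cells, 26.5, 31.1 and 29.5 with EGF, and 27.2, 25.7 and 27.8 with bleogen pB1. The groups overlapped, and its log2 fold change with EGF was 0.15 (95% interval 0.01 to 0.29, adjusted p = 0.0583, edgeR). It overlaps SLC19A1 on the opposite strand. Of the short-chain network genes, only COL8A1, a collagen of vessel walls and the cornea, was tested, with 3, 11 and 11 counts in untreated cells, 4, 2 and 6 with EGF, and 12, 19 and 11 with bleogen pB1. Its log2 fold change with EGF was -1.01 ± 0.58 SE (adjusted p = 0.141, edgeR), from counts that overlapped.

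Bleogen pB1 left no collagen gene past the thresholds. EdgeR called 0 of 18, where it called 1.48% of all tested genes (0.218% higher and 1.26% lower), and DESeq2 and limma also called 0 collagen genes. In edgeR 3 of the 18 had an unadjusted p under 0.05, beside 22.2% of all tested genes. The 18 log2 fold changes lay between -0.72 (COL11A2) and 0.70 (COL8A1), with a median of -0.03, and 15 of their 95% intervals included 0. The genes that EGF changed most had intervals of -0.79 to 0.12 (COL13A1), -0.76 to 0.11 (COL3A1) and -0.54 to 0.16 (COL5A1). Changes of the size seen with EGF lay outside these intervals. That of COL13A1 may be too narrow, because its unadjusted p (0.204, edgeR) was larger than its SE implies. COL4A5 changed by -0.08 (95% interval -0.24 to 0.07). COL12A1 came closest to a call: its log2 fold change was -0.35 ± 0.08 SE with an adjusted p of 0.0373 in edgeR, past the p threshold and under the fold threshold. It was the only collagen gene past the p threshold in this comparison (1 of 18, beside 4.11% of all tested genes). On the CPM scale, COL4A1, COL4A6 and COL27A1 were higher in every bleogen pB1 library than in every untreated library. COL12A1 and COL13A1 were lower in the same way. The share of all genes without such overlap is not given for this comparison. COL4A6 (0.23 ± 0.10) and COL27A1 (0.21 ± 0.08) had adjusted p values of 0.224 and 0.167 in edgeR. The comparisons of EGF and of bleogen pB1 use the same untreated libraries and are not independent.

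Set directly against each other, EGF and bleogen pB1 libraries differed in 10 of 18 collagen genes (beside 28.8% of all tested genes), at doses that were not equal. COL13A1 was higher with EGF (beside 10.8% of all genes), by 4.70 ± 0.15 on the log2 scale (SE, adjusted p = 1.57e-10, edgeR). The other 9 were lower with EGF (beside 18.0% of all genes). The largest of these differences were -2.65 ± 0.27 for COL3A1 and -2.63 ± 0.21 for COL5A1, followed by -1.70 ± 0.53 for COL8A1, -1.53 ± 0.27 for COL1A1 and -1.50 ± 0.31 for COL6A1. COL5A2 (-1.03 ± 0.34), COL5A3 (-0.99 ± 0.30), COL4A5 (-0.81 ± 0.07) and COL16A1 (-0.62 ± 0.10) completed the list. COL8A1 was called here alone (adjusted p = 0.0141, edgeR), with 4, 2 and 6 counts against 12, 19 and 11. It passed the count filter through the other groups, including the bleogen pB1 libraries, where it was high. Its call is therefore not independent of the filter. Without EGF replicate 2 or without bleogen pB1 replicate 2 the adjusted p of COL8A1 became 0.0517 and 0.0582.

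The 21 collagen genes under the count filter reached at most 0.26 FPKM. Only 4 of them had 10 or more counts in any library, namely COL15A1, COL11A1, COL6A3 and COL9A2. COL15A1, the multiplexin relative of COL18A1, was at 0 in all untreated libraries and had 8, 24 and 14 counts with EGF, and 2, 1 and 0 with bleogen pB1. With EGF its mean CPM was at least 5.05-fold higher than the floor of 3 counts per untreated library. COL11A1, a fibrillar chain of cartilage, had 0, 2 and 0 counts in untreated cells, 1, 23 and 9 with EGF, and 0, 0 and 2 with bleogen pB1, so that its groups overlapped. COL9A2, the partner of COL9A3, had 4, 3 and 1 counts in untreated cells, 1, 1 and 2 with EGF, and 7, 6 and 15 with bleogen pB1.

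Collagens need dedicated enzymes and carriers, and the genes of this machinery were read from the same fit. Of 58 such genes, 45 were tested. With EGF 16 of the 45 were called, 10 higher and 6 lower, beside 36.9% of all tested genes in either direction, 15.1% higher and 21.8% lower. With bleogen pB1 edgeR called 0 of the 45, with 12 at an unadjusted p under 0.05 beside 22.2% of all tested genes, and DESeq2 and limma also called 0. The median log2 fold change with EGF was 0.13 for 17 modification and folding genes, 0.02 for 7 export genes, -0.63 for 6 processing and cross-linking genes, 0.47 for 7 receptors and -0.51 for 8 matrix partners.

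Of the 17 genes for modification and folding of chains, 4 rose with EGF (beside 15.1% of all tested genes) and none fell past the thresholds (beside 21.8%). PLOD3, a lysyl hydroxylase and glycosyltransferase, was at 28.2, 28.6 and 25.5 FPKM in untreated cells and 44.9, 50.6 and 45.9 with EGF, and rose by 0.84 ± 0.07 on the log2 scale (SE, adjusted p = 3.63e-07, edgeR). PPIB, a prolyl isomerase of the endoplasmic reticulum (0.68 ± 0.06), FKBP14, another isomerase (0.87 ± 0.08), and TMEM38B, an ion channel of the same compartment (1.08 ± 0.11), also rose. The collagen chaperone SERPINH1, named here after its values were seen, was at 139, 133 and 131 FPKM in untreated cells and 99.2, 83.0 and 93.2 with EGF. Its groups did not overlap, and its log2 fold change of -0.48 ± 0.07 SE was just under the fold threshold (adjusted p = 5.32e-05, edgeR). Of the 7 export genes, 2 rose, beside the same 15.1%: the coat component SEC24D (0.74 ± 0.09) and PREB (0.61 ± 0.07). MIA3, the receptor that loads procollagen into carriers, changed by -0.23 ± 0.06 and its relative MIA2 by 0.23 ± 0.09, both under the fold threshold.

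Genes that act on collagens outside the cell changed in both directions, with 1 of 6 processing genes and 3 of 7 receptors higher (beside 15.1% of all tested genes) and 2 of 6, 1 of 7 and 3 of 8 matrix partners lower (beside 21.8%). Procollagen C-proteinase BMP1 was at 45.4, 46.1 and 42.1 FPKM in untreated cells and 21.2, 25.4 and 23.0 with EGF, and its enhancer PCOLCE was at 0.62, 0.62 and 0.71 FPKM and then at 0.09 in each EGF library. BMP1 fell by 0.87 and PCOLCE fell by 2.73 on the log2 scale (SE 0.09 and 0.36), the lysyl oxidase relative LOXL2 rose (1.12 ± 0.12), and LOXL1 changed by -0.38 ± 0.13, under the fold threshold. Of 7 tested receptors, ITGB1, the shared chain of the collagen-binding integrins (0.72 ± 0.05), its partner ITGA1 (0.95 ± 0.30) and DDR2 (1.83 ± 0.60) rose. The uptake receptor MRC2 fell (-1.49 ± 0.12), with DDR1 at -0.44 ± 0.07 and ITGA2 at 0.29 ± 0.07, under the fold threshold. The rises of ITGA1 and DDR2 rest on few counts. ITGA1 had 13, 20 and 14 counts in untreated cells and 33, 22 and 34 with EGF. DDR2 had 0, 7 and 6 counts in untreated cells and 13, 21 and 12 with EGF, so it passed the count filter through the group where it was high. Of 8 tested matrix partners, 3 fell. SPARC, a collagen-binding protein of the matrix and basement membrane, was at 152, 156 and 141 FPKM in untreated cells, 40.8, 39.6 and 40.2 with EGF, and 154, 106 and 131 with bleogen pB1, a change of -1.83 ± 0.11 with EGF (log2, SE, adjusted p = 3.07e-08, edgeR). Fibulin-1 (FBLN1, -1.55 ± 0.12) and perlecan (HSPG2, -0.89 ± 0.09) fell as well, and agrin (AGRN) changed by -0.37 ± 0.07.

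**Figure D4:**
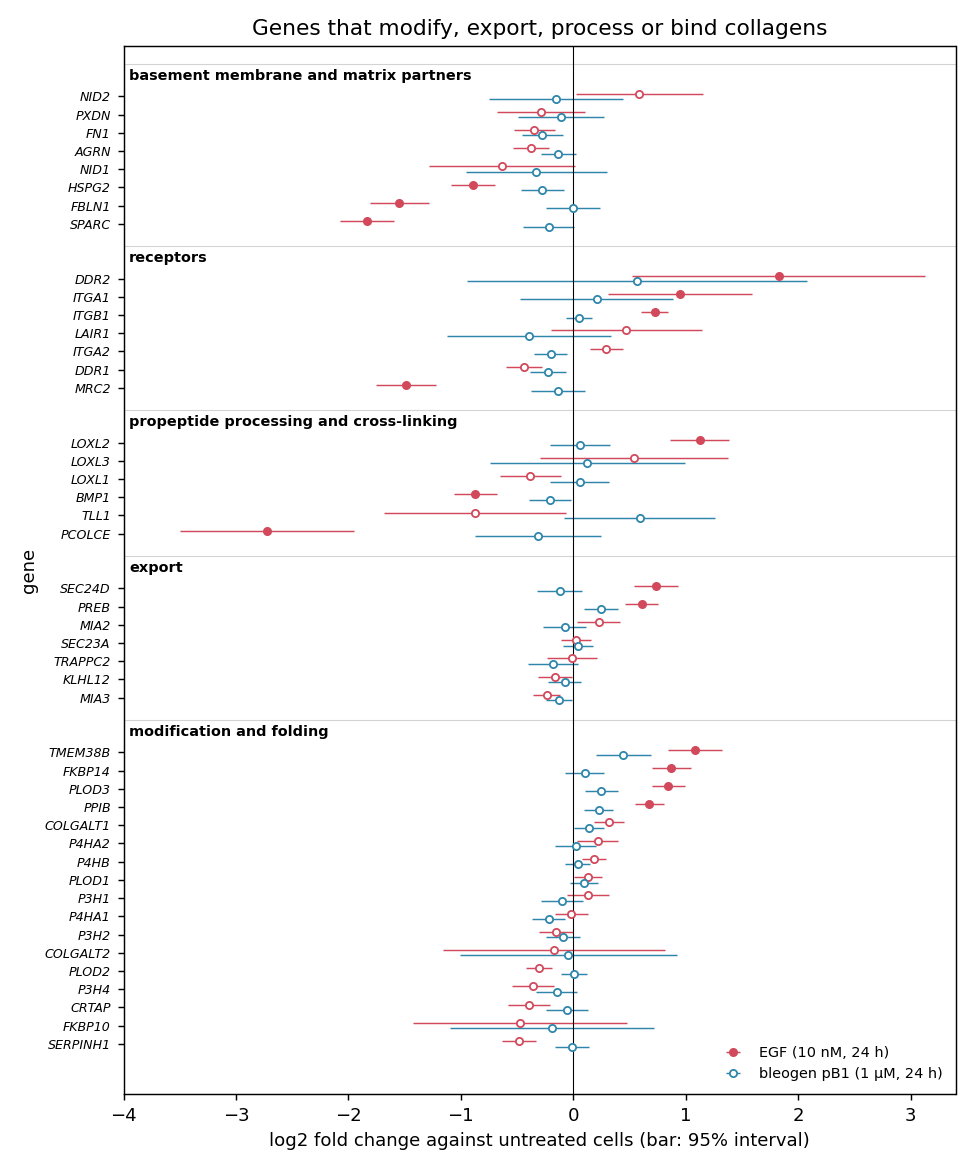
Log2 fold change (horizontal axis, with 95% intervals) against untreated cells of the 45 tested genes that modify, export, process or bind collagens, grouped by role. Filled points passed both thresholds of the edgeR fit: with EGF they run from -2.73 (PCOLCE) to 1.83 (DDR2), and with bleogen pB1 none is filled. DDR2 had at most 21 counts in any library.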

How the data were processed

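PolyA-selected RNA of 9 HaCaT samples (3 untreated, 3 EGF, 3 bleogen pB1) was sequenced at BGI. The authors deposited expected counts, which are estimated read numbers per gene, mapped to GRCh38 (p12) per the labels, not scaled for depth, and the counting program and its use of strand are not given in the sources used here. The FPKM values deposited by the authors divide these counts by effective gene length and library size, to 2 decimals. A gene without an entry in a library was counted as 0.

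Expected counts were rounded and tested with edgeR 4.0.16 (R 4.3.3): filterByExpr, TMM, glmQLFit and glmQLFTest with 1 coefficient per group on all 9 libraries, 12394 genes, Benjamini-Hochberg adjustment over all of them, and the thresholds named in the report. SE was obtained from the log2 fold change and the square root of F, and 95% intervals use the t distribution. Both can be too narrow for genes of few counts. Ratios were compared by exact permutation over libraries. Alternatives were DESeq2 1.42.0, limma 3.58.1 on log2(FPKM + 1) or log2(FPKM + 0.1), other scalings, filters and thresholds, omission of each library in turn, and a block for replicate number. Python 3.11.15, pandas 2.3.3 and scipy 1.17.1 were used. The edgeR steps were tested on simulated counts for EGF against untreated, with the same spread for every gene and changes above the fold threshold.

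Named were all collagen genes called in any comparison, the uncalled ones of highest FPKM with type IV partners, untested ones with 10 or more counts, and up to 4 genes of each machinery list by smallest adjusted p with EGF. ITGA1, DDR2, SERPINH1, COL1A2, COL6A2, COL23A1, COL4A3 and COL4A4 were named outside this rule, after their values were seen. The collagen genes and the lists were chosen with earlier results of these data known. Gene coordinates follow GENCODE 44 (GRCh38), and promoter windows are RefSeq's.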

Additional observations from a re-analysis of the deposited data

Results flagged for a closer look

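Collagen genes under the count filter took no part in the comparisons. In 2 of them every library of a treated group held more than 3 counts and more than each untreated library. The share of all genes under the filter that met this rule was not counted. COL15A1 had between 8 and 24 expected counts in the EGF libraries and 0 in each untreated library. COL9A2 had between 6 and 15 expected counts in the bleogen pB1 libraries and 1 to 4 in the untreated libraries. COL6A3 also lay above its untreated libraries (1, 1 and 0 counts) with EGF (2, 20 and 8) and with bleogen pB1 (2, 3 and 2), but within 3 counts in part of these libraries. The cause was not tested in any of these cases.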

How the results depend on the processing

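The count of called collagen genes with EGF against untreated moved from 9 to 5 with an absolute log2 fold change of at least 1 and to 4 with limma on log2(FPKM + 1) after a filter at an FPKM of 1, which left 11 collagen genes to test. With bleogen pB1 against untreated it moved from 0 to 1 (COL12A1) with the adjusted p alone. With EGF against bleogen pB1 it moved from 10 to 6 with limma on log2(FPKM + 1) and to 4 with the FPKM filter. The calls over all genes also fell. With EGF against untreated, 1875 genes up and 2703 down of 12394 became 529 and 1363 at a log2 fold change of 1. With the FPKM filter they were 1221 and 2072 of 10961. With EGF against bleogen pB1, 1339 up and 2225 down became 826 and 1772 with limma on log2(FPKM + 1). With the FPKM filter they were 797 and 1720. Leaving out each library gave 7 to 11, 0 to 0 and 9 to 10 called genes in the 3 comparisons. COL13A1, COL3A1, COL5A1, COL6A1, COL4A5 and COL16A1 kept their calls with EGF in every alternative that tested them at the main fold threshold, and COL1A1 in 14 of 15 (limma on log2(FPKM + 1) gave -0.39). COL5A2 kept its call against untreated in 3 of 14 alternatives and lost it without any of the 3 untreated libraries, EGF replicate 1 or EGF replicate 3 (adjusted p up to 0.177). COL5A3 kept its call in 8 of 15 and lost it without untreated replicate 2 or 3 or EGF replicate 1 or 3 (adjusted p up to 0.140). Against bleogen pB1, COL8A1 and COL5A2 each kept their call in 11 of 14 and COL5A3 in 12 of 15. There COL5A2 lost it without EGF replicate 1 or bleogen pB1 replicate 3 (adjusted p 0.0711 and 0.0714), COL5A3 without EGF replicate 3 or bleogen pB1 replicate 1 (0.0657 and 0.0556), and COL8A1 without EGF replicate 2 or bleogen pB1 replicate 2. COL11A2, not called with EGF, was called at -1.19 without untreated replicate 1 or EGF replicate 2 and at -1.09 with upper-quartile factors, and COL8A1 at -1.40 without untreated replicate 1. DESeq2 and edgeR without the count filter also called COL15A1, COL11A1 and COL6A3 higher with EGF, from at most 2 counts in any untreated library. EdgeR without the filter called 13 collagen genes in all, beside 1998 genes up and 2846 down of 16186.

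Upper-quartile factors moved the median of all genes with EGF to -0.12 (1396 up and 3221 down, against 1875 and 2703). Values that changed sign belonged to genes without a call. With EGF against untreated these were COL4A2 (-0.044, upper-quartile factors), COL4A1 (-0.079 to 0.0092 when each library was left out, positive without EGF replicate 2) and COL4A6 (-0.098 to 0.062, positive without untreated replicate 1 or 2 or EGF replicate 1). With bleogen pB1 they were COL9A3 (-0.109 to 0.069, positive without untreated replicate 2 or 3 or bleogen pB1 replicate 1, and 0.012, 0.015 and 0.012 with limma on log2(FPKM + 1), on log2(FPKM + 0.1) and with the FPKM filter), COL16A1 (-0.081 to 0.031, positive without bleogen pB1 replicate 2), COL11A2 (0.0029 with limma on log2(FPKM + 1)) and COL6A1 (-0.012 with upper-quartile factors, -0.010 with limma on log2(FPKM + 0.1), -0.0024 with at least 10 counts in every library, -0.025 with the replicate block, -0.00099 on the 6 libraries compared, and -0.228 to 0.182 when each library was left out, negative without untreated replicate 3 or bleogen pB1 replicate 1). With EGF against bleogen pB1 they were COL4A2 (-0.0030, upper-quartile factors) and COL11A2 (-0.549 to 0.113, positive without EGF replicate 1). With the replicate number as a block, 7, 0 and 10 collagen genes were called in the 3 comparisons. Deviations from the group means correlated at 0.028 on average between same-numbered untreated and EGF libraries, 0.096 (-0.030 to 0.207) between untreated and bleogen pB1 libraries and 0.040 between EGF and bleogen pB1 libraries, so the numbers were not taken to pair the libraries. Depth limits the genes under the filter, where a few counts decide a fold change.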

Other observations

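Of the untested collagen genes with 10 or more counts in a library, 3 had that count in the same EGF library. COL15A1 (8, 24 and 14 counts), COL11A1 (1, 23 and 9) and COL6A3 (2, 20 and 8) each had their highest count in EGF replicate 2, and their lowest in EGF replicate 1. COL27A1 and COL18A1, which passed the filter, also had their highest value of the EGF group in replicate 2, at 11.3 and 31.1 FPKM. The same held for COL4A2, COL13A1, COL9A3, COL16A1, COL5A3, COL3A1 and COL5A2. Other genes past the filter went the other way: COL4A1 and COL12A1 had their lowest EGF value there, at 25.3 and 9.47 FPKM, as did COL4A5, COL6A1 and COL8A1. How many of all genes had their highest EGF value in that library was not counted. The cause was not tested.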
